A study of Mus musculus with 8 samples.

Results

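The 10 genes examined belong to the insulin-like growth factor (IGF) family: the ligand genes Igf1 and Igf2, the receptor genes Igf1r and Igf2r, and the binding protein genes Igfbp2 to Igfbp7. They were taken by gene symbol from the 24015 symbols of the table, and all 10 were found and entered the tests. The cells were cardiac fibroblasts from C57BL/6J mice, wild type and 8 weeks old, cultured in a medium for osteogenic differentiation and harvested on day 0, day 7, day 14 and day 21, with 2 RNA sequencing libraries at each time and 8 in all. Every group shares the strain, the genotype and the cell source, and the day of harvest is the variable that the labels give. No culture of the same age without the medium is among the libraries, so days in culture and the medium cannot be told apart. Whether libraries harvested on the same day represent independent cultures or mice is left unsaid by the labels, so the p-values cover library-to-library spread alone, which may be technical.

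IGF1 and IGF2 are small secreted peptides that act through IGF1R, a tyrosine kinase at the cell surface that passes the signal to the insulin receptor substrates and on to AKT. IGF2R carries no kinase: it takes up IGF2 for breakdown and sorts lysosomal enzymes that bear mannose 6-phosphate. The binding proteins hold IGFs in the fluid around cells, where they either keep the ligands from the receptor or deliver them. IGFs and IGFBP5 are stored in bone matrix, and the pathway is a known regulator of bone-forming cells and of fibroblast growth.

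The values are normalized read counts, meaning reads per gene divided by a size factor of the library. Between 13399313 and 21883498 reads per library were assigned to genes, and 15409 to 16200 genes were detected. All 8 fibroblast markers examined, among them Pdgfra, were present in every library. They summed to 428751 and 435195 normalized counts on day 0 and 210317 and 222362 on day 7. Their sum was 164430 and 128151 on day 14 and 189046 and 234688 on day 21. Nearly all of the day 0 sum came from Col1a1 (242711 and 257184) and Col1a2 (161631 and 153634). On day 7 Col1a1 had 64014.5 and 73190 normalized counts, and Col1a2 had 85364 and 89044.5. On day 7 relative to day 0, 5 of the 8 markers were called higher, among them Tcf21 and Dcn. The other 3 were called lower, among them Col1a1 and Col1a2, where 55.4% of all genes were called. Macrophage markers summed to 9761 or more normalized counts in each library from day 7 on, and to 1159 and 1225 on day 0. Of 10 cardiomyocyte markers, Myh6 was at 0 in all 8 libraries. Tnnt2, of the same list, had 1207 and 1134 normalized counts on day 0 and 5849 or more in each later library. The osteoblast list of 8 genes summed to 452 and 460 normalized counts on day 0 and 298 and 379 on day 7. Its sum was 453 and 380 on day 14 and 842 and 626 on day 21. Nearly all of it came from Runx2 (162 to 324) and Alpl (68.3 to 630), while Sp7 and Ibsp were at 0 in all 8 libraries. Of its 3 tested genes, Alpl and Dmp1 were called higher on day 21 than on day 0, where 59.4% of all genes were called. Dmp1 was low, with 0.796 and 1.31 normalized counts on day 0 and 6.41 and 10.7 on day 21. Adipocyte markers summed to 96.3 and 143 normalized counts on day 0, 2115 and 2120 on day 7, 5860 and 7129 on day 14, and 2481 and 2318 on day 21, most of it from Fabp4. Endothelial, mural and Schwann cell markers summed to 304 to 711, 5570.3 to 15032 and 208 to 298 normalized counts over the 8 libraries. Most of the mural sum came from Pdgfrb (4768.5 to 12246), while Rgs5 was at 8.20 to 38.5. Tek (189 to 353) was the largest part of the endothelial sum, while Cdh5 had 177 and 183 on day 0 and 3.20 and 7.78 on day 21. Of 8 tested endothelial markers, 6 were called lower and 0 higher on day 21 than on day 0, where 59.4% of all genes were called. Because each library is a mixture of cells, fewer cells of a type and less RNA per cell cannot be told apart.

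The largest changes in the family were those of binding protein genes. Igfbp6 and Igfbp3 rose over 30-fold in the first week, Igfbp7, Igfbp4 and Igf2 also rose, and Igf2r fell. In the second week the receptor genes, Igf1 and Igfbp5 fell while Igfbp2 and Igfbp4 rose. In the third week Igf1, Igf1r, Igf2r and Igfbp5 rose again and Igfbp6 fell. Calls were made at an adjusted p below 0.05 by limma over all 13527 genes tested.

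**Figure D1:**
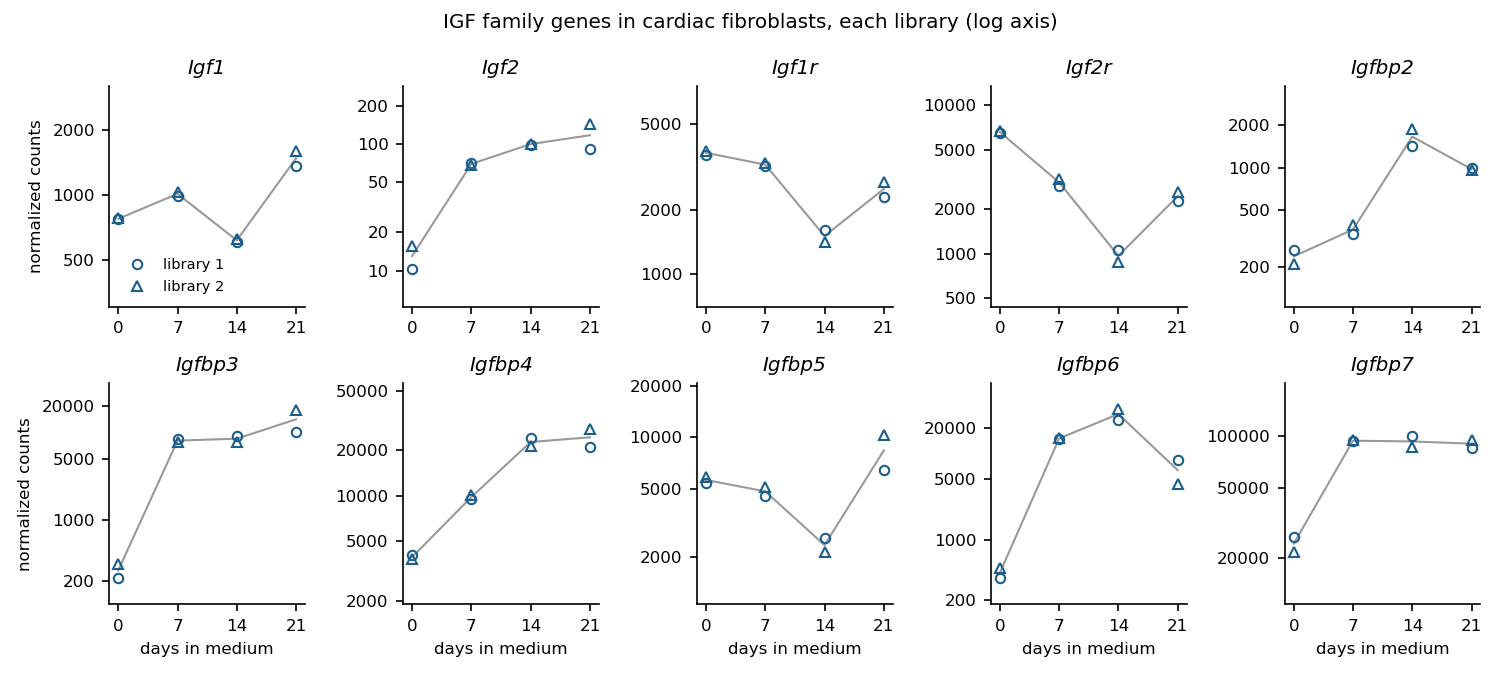
Normalized counts (log axis) of each of the 10 genes against days in medium, with a circle for library 1, a triangle for library 2 and a line through the means. Igfbp3, Igfbp6 and Igfbp7 make their main step between day 0 and day 7, whereas Igf1, Igf1r, Igf2r and Igfbp5 are lowest on day 14.

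Between day 7 and day 0, 8 of the 10 genes were called, 7 higher and 1 lower, where 55.4% of all tested genes were called. Against day 0, day 14 had 10 of 10 genes called (6 higher and 4 lower, with 70.7% of all genes called), and day 21 had 10 of 10 (8 higher and 2 lower, with 59.4% of all genes called). From week to week, 7 of 10 were called between day 14 and day 7 (3 higher, 4 lower, against 52% of all genes) and 7 of 10 between day 21 and day 14 (5 higher, 2 lower, against 34.5%). The first 3 of these comparisons share the day 0 libraries. The median size of the change, without its sign, was 1.23 log2 units for the 10 genes against 0.45 for all genes in the first week. In the second week these medians were 0.98 and 0.42, and in the third week 0.74 and 0.31.

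Igf1, the ligand gene with the higher level, had 772 and 777 normalized counts on day 0, 988 and 1031 on day 7, 606 and 624 on day 14, and 1355 and 1595 on day 21. The libraries of no 2 times overlapped, and day 14 was the lowest time and day 21 the highest. Igf1 rose by a log2 change of 0.38 ± 0.10 (SE) on day 7 over day 0 (limma, adjusted p = 0.00705). It then fell by 0.71 ± 0.10 on day 14 relative to day 7 (adjusted p = 0.000182), and on day 21 it was 2.39-fold higher than on day 14 (log2 change 1.26 ± 0.10, adjusted p = 2.28e-05). Day 21 also lay above day 0, by 0.92 ± 0.10 (adjusted p = 7.62e-06). With single libraries left out, the smaller steps kept their size but not always the call. Such fits leave 1 library in a group. The log2 change of the day 7 step was 0.35 to 0.41 in them, with 0.35 without the second day 7 library. The fall on day 14 relative to day 0, a log2 change of -0.33 (adjusted p = 0.0116), had adjusted p-values of 0.0556 without the first day 0 library (log2 change -0.34) and 0.0612 without the second (log2 change -0.33).

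Macrophages are a known source of Igf1, so their markers are given beside it. The 12 measured macrophage markers summed to 1159 and 1225 normalized counts on day 0 and 12108 and 9761 on day 7. Their sum was 20620 and 38760 on day 14 and 20466 and 20579 on day 21, most of it from Lyz2. Of the 12, 11 were called higher on day 7 than on day 0, where 55.4% of all genes were called. Igf1 was lowest on day 14 and highest on day 21. The sum was highest in the second day 14 library, while the first was close to the day 21 libraries. On day 21 relative to day 14, 1 of the 12 markers was called lower and 0 higher. In that comparison 34.5% of all genes were called. The part of these cells in the level of Igf1 was not tested.

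Igf2, the fetal-type growth factor expressed from the paternal allele in most tissues, was the lowest of the 10 genes at every time. Its values were 10.4 and 15.7 normalized counts on day 0, 71.1 and 67.8 on day 7, 98.4 and 101 on day 14, and 90.8 and 143 on day 21. Day 0 lay below every later library, and the day 14 libraries fell within the span of the day 21 ones. The day 7 level was 5.11-fold that of day 0 (log2 change 2.35 ± 0.26, adjusted p = 8.41e-06), and the day 21 level 8.35-fold that of day 0 (log2 change 3.06 ± 0.26, adjusted p = 6.18e-07). The later steps were not called, with log2 changes of 0.51 on day 14 over day 7 (adjusted p = 0.114) and 0.19 on day 21 over day 14 (adjusted p = 0.590). Only 12 to 147 reads per library stood behind these values. Of the exon bases of Igf2, 98 also belong to the antisense gene Igf2os, which had 7 reads over all 8 libraries, and Gm49394 shares exon bases on the same strand. Per kilobase of exon, Igf1 exceeded Igf2 by 43.1- and 28.6-fold on day 0, 8.04- and 8.80-fold on day 7, 3.56- and 3.59-fold on day 14, and 8.63- and 6.45-fold on day 21.

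Igf2r had the largest fall of the family relative to day 0. It held 6447 and 6715 normalized counts on day 0, 2867 and 3174 on day 7, 1058 and 880.1 on day 14, and 2247 and 2621 on day 21. All libraries from day 7 on lay below both of day 0, and the day 14 libraries below all others. The day 7 level was lower than day 0 by 2.18-fold (log2 change -1.12 ± 0.11, adjusted p = 4.17e-06), and the day 14 level was lower than day 7 by 3.12-fold (log2 change -1.64 ± 0.11, adjusted p = 5.60e-06). In the third week Igf2r rose again, to 2.51-fold the day 14 level (log2 change 1.33 ± 0.11, adjusted p = 3.00e-05), and day 21 remained below day 0 by 2.71-fold (adjusted p = 3.48e-07).

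Igf1r, the signalling receptor, had 3599.5 and 3764 normalized counts on day 0, 3179 and 3304 on day 7, 1604 and 1415 on day 14, and 2296 and 2698 on day 21. Its first-week difference was not called (log2 change -0.18 ± 0.10, adjusted p = 0.153), although the day 7 libraries lay below those of day 0. It fell by 1.10 ± 0.10 on the log2 scale on day 14 relative to day 7 (adjusted p = 2.44e-05) and rose by 0.72 ± 0.10 on day 21 relative to day 14 (adjusted p = 0.000634). The ratio of Igf2r to Igf1r, in normalized counts without correction for length, was 1.79 and 1.78 on day 0, 0.902 and 0.961 on day 7, 0.660 and 0.622 on day 14, and 0.979 and 0.972 on day 21. The clearance receptor was thus in excess over the signalling receptor, by counts, only in the day 0 libraries of the 8. Per kilobase of all exon bases the order differs, with Igf1r below Igf2r in every library. Igf1r was 0.840- and 0.892-fold of Igf2r on day 14 and 0.310- and 0.311-fold on day 0. Per kilobase of the longest transcript, the mean of Igf1r was above that of Igf2r on day 14 and below it at the other times.

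The sequence upstream of the most reduced gene and of 3 binding protein genes that rose is shown so that their start regions can be read beside the values. No promoter activity was measured. Each is the 250 bases before the annotated RefSeq start, 5′ to 3′ on the gene's strand, from build GRCm38.p6: Igf2r lies at chr17:12769707-12769956 (minus strand), Igfbp3 at chr11:7213924-7214173 (minus), Igfbp4 at chr11:99040994-99041243 (plus) and Igfbp6 at chr15:102143936-102144185 (plus). Capitals mark letter matches to 7 motifs searched on both strands.
Igf2r: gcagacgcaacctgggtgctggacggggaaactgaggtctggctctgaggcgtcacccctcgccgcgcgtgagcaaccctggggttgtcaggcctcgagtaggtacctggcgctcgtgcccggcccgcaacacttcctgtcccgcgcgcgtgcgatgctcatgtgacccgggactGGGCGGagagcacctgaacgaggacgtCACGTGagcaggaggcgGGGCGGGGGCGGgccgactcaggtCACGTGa
Igfbp3: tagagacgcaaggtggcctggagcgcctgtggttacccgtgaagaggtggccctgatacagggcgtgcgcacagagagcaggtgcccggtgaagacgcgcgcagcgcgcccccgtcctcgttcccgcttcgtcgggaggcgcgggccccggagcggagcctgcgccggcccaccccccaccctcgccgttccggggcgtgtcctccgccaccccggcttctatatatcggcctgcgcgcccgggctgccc
Igfbp4: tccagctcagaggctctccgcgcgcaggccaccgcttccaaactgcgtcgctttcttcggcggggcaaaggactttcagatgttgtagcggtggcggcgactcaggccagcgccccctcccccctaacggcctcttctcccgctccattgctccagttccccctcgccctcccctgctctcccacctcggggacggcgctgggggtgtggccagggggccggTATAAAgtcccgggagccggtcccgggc
Igfbp6: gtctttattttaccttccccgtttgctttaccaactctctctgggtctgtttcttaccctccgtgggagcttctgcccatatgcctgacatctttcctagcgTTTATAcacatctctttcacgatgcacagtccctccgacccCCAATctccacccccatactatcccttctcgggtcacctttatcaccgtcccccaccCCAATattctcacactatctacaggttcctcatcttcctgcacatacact
In Igf2r, the GC box GGGCGG stands 75, 31 and 25 bases before the start, and the E-box CACGTG 48 and 7 bases before it. Igfbp4 has the TATA box TATAAA 28 bases before its start. Igfbp6 has the reverse complement of that motif, TTTATA, at 148 bases and the CCAAT box at 107 and 50 bases. No match was found in the Igfbp3 window. The other 3 motifs, the glucocorticoid receptor half-site TGTTCT, the FoxO site GTAAACA and the AP-1 site TGACTCA, are in none of these 4 windows. Among the other windows, the half-site stands 206 bases before a start of Igfbp2 and 85 bases before a start of Igf2, and the AP-1 site 39 bases before another start of Igfbp2. Among the same 250 bases of 32851 RefSeq promoters, GGGCGG was in 32.7%, CCAAT in 33.9%, TGTTCT in 16.1%, TATAAA in 12.4%, CACGTG in 6.02%, TGACTCA in 4.46% and GTAAACA in 3.17%, and no 2 motifs share bases in the windows shown. All 10 genes had an entry, with 14 windows in all.

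Igfbp3 encodes the main IGF carrier of blood, which also acts on cells directly. Its values were 221 and 312 normalized counts on day 0, 8365 and 7736 on day 7, 9136 and 7817 on day 14, and 10055 and 18117 on day 21. The day 7 and day 14 libraries overlapped each other and were far from those of day 0. Igfbp3 rose 30.5-fold on day 7 relative to day 0 (log2 change 4.93 ± 0.22, adjusted p = 3.38e-09), rank 39 of 13527 genes by change, and did not pass the test in the second week (log2 change 0.07 ± 0.22, adjusted p = 0.809). By day 21 the level was 51.2-fold that of day 0 (adjusted p = 6.91e-10). The third-week step of 0.68 ± 0.22 was called (adjusted p = 0.0342), and it rested on the second library of each time: without the second day 21 library it was 0.25 (adjusted p = 0.348), without the second day 14 library 0.56 (adjusted p = 0.147), and without the first day 21 library 1.10 (adjusted p = 0.00248). That step was also uncalled by DESeq2 on recovered reads (log2 change 0.72, adjusted p = 0.0946).

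Igfbp6, whose protein prefers IGF2 over IGF1, had the largest rise of the family and the largest fall after it. It had 357 and 465 normalized counts on day 0, 14742 and 15139.7 on day 7, 24692 and 32567 on day 14, and 8398 and 4421 on day 21. The libraries of no 2 times overlapped. At day 7 it was 36.5-fold above day 0 (log2 change 5.19 ± 0.23, adjusted p = 3.38e-09), rank 29 of 13527 genes, and on day 14 69.3-fold above day 0 (log2 change 6.12 ± 0.23, adjusted p = 5.17e-10). At day 21 it was 4.65-fold lower than on day 14 (log2 change -2.22 ± 0.23, adjusted p = 0.000118), rank 22 from the bottom of 13527, and still 14.9-fold above day 0 (adjusted p = 2.93e-08). The second-week step of 0.92 ± 0.23 (adjusted p = 0.00595) had an adjusted p of 0.0929 once a trend with transcript length and GC content was removed (log2 change 0.51).

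Some markers of other cells moved with Igfbp6. Msln, a mesothelial marker, had 19.1 and 19.6 normalized counts on day 0, 404 and 400.3 on day 7, 1103 and 1254 on day 14, and 674 and 246 on day 21, and the mesothelial gene Upk1b was also highest on day 14, with 436 and 466. Other mesothelial markers took another course: Upk3b fell to 400 and 371 normalized counts on day 7, against 887 and 777 on day 0, and Lrrn4 and Krt19 fell as well. The 6 measured mesothelial markers summed to 1432 and 1324 on day 0 and 1079 and 1055 on day 7. Their sum was 2031 and 2138 on day 14 and 1155 and 502 on day 21. On day 7 relative to day 0, 2 were called higher and 3 lower, where 55.4% of all genes were called. Tnnt2, a troponin gene of heart muscle, had 1207 and 1134 normalized counts on day 0, 11739 and 11078 on day 7, 22419 and 28771 on day 14, and 10580.3 and 5849 on day 21. It made up nearly all of a list of 10 cardiomyocyte markers, of which 4 to 6 were at 0 in each library. Fabp4, an adipocyte marker that other cells also express, had 78.8 and 112 normalized counts on day 0, 2046 and 2065 on day 7, 5671 and 6967 on day 14, and 2323 and 2062 on day 21, so it too peaked on day 14. Of the other adipocyte markers, Adipoq and Plin1 were at 0 on day 0 and at no more than 35.0 and 24.3 normalized counts in any library. The part of these cells in the course of Igfbp6 was not tested.

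Igfbp4 encodes a binding protein that mostly restrains IGF action and is freed of its ligand by pappalysin. It had 3997 and 3798 normalized counts on day 0, 9428 and 10133 on day 7, 23986 and 21463 on day 14, and 20930.0 and 27901 on day 21. The libraries rose in 2 separate steps, and those of day 21 enclosed those of day 14. Igfbp4 rose by a log2 change of 1.33 ± 0.13 on day 7 over day 0 (adjusted p = 3.37e-06) and by 1.21 ± 0.13 on day 14 over day 7 (adjusted p = 4.01e-05). The third-week difference of 0.09 ± 0.13 was not called (adjusted p = 0.622), with a 95% interval of -0.19 to 0.38.

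Igfbp2, which binds IGF2 strongly and can attach to integrins, moved mainly in the second week. Its values were 265 and 209 normalized counts on day 0, 341 and 393 on day 7, 1430.4 and 1889.9 on day 14, and 991 and 967 on day 21. The libraries of no 2 times overlapped. The second-week rise was 4.48-fold on day 14 over day 7 (log2 change 2.16 ± 0.15, adjusted p = 5.60e-06), rank 57 of 13527 genes, and the day 21 level was 1.68-fold lower than on day 14 (log2 change -0.75 ± 0.15, adjusted p = 0.00350). The smaller first-week rise of 0.63 ± 0.15 (adjusted p = 0.00320) had an adjusted p of 0.0544 without the second day 0 library (log2 change 0.46).

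Igfbp5, the binding protein gene known for its abundance in bone, was the only one of the 6 binding protein genes called lower than day 0, which it was on day 14 (log2 change -1.27, adjusted p = 3.66e-05). It had 5417 and 5857 normalized counts on day 0, 4534 and 5144 on day 7, 2572 and 2134 on day 14, and 6444 and 10302.5 on day 21. The day 14 libraries were the lowest and those of day 21 the highest. The first-week difference was not called (log2 change -0.22 ± 0.18, adjusted p = 0.304). Igfbp5 fell by 1.04 ± 0.18 on the log2 scale on day 14 relative to day 7 (adjusted p = 0.000479) and rose 3.48-fold on day 21 relative to day 14 (log2 change 1.80 ± 0.18, adjusted p = 7.55e-05), rank 43 of 13527 genes. Day 21 was called above day 0 as well (log2 change 0.53, adjusted p = 0.0198), but the size followed the day 21 library used. It was 0.19 without the second (adjusted p = 0.242) and 0.87 without the first (adjusted p = 0.000343), and the adjusted p was 0.116 without the first day 0 library (log2 change 0.48) and 0.0591 without the second (log2 change 0.59).

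Igfbp7, a relative that binds IGFs weakly and is abundant in vessel walls and matrix, had the highest level of the 10 throughout. It had 26371 and 21654 normalized counts on day 0, 92471 and 94353 on day 7, 99556 and 85439 on day 14, and 84966 and 94649.8 on day 21. The later times overlapped each other and lay apart from day 0. Igfbp7 rose 3.91-fold on day 7 relative to day 0 (log2 change 1.97 ± 0.14, adjusted p = 2.42e-07) and was not called in either later week (log2 changes -0.02 and -0.04, adjusted p = 0.927 and 0.851). Of its exon bases, 85 are shared with Polr2b on the opposite strand, and whether reads were counted by strand is not given in the sources used here.

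**Figure D2:**
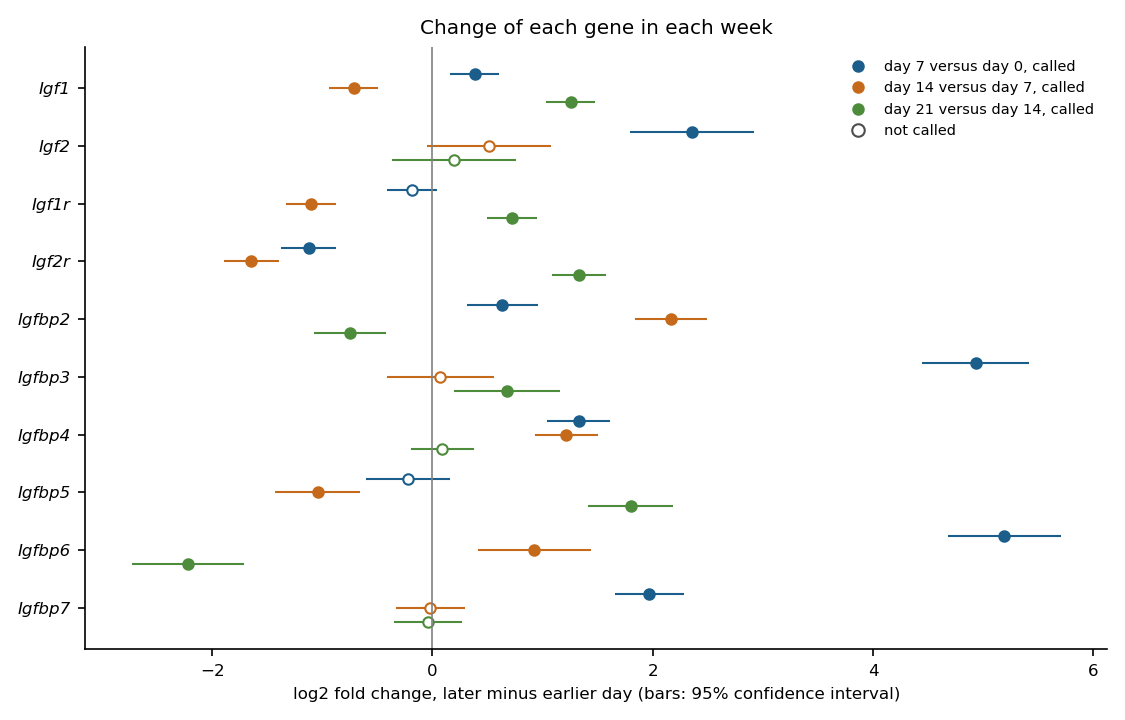
Log2 fold change (later minus earlier day) of each gene in each week, with 95% confidence intervals from limma and filled points for called changes. Igfbp3 and Igfbp6 stand far to the right in the first week at 4.93 and 5.19, and Igfbp6 and Igfbp5 lie at opposite ends in the third week at -2.22 and 1.80.

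Levels of different genes were set side by side per kilobase of exon. Igfbp7 was first and Igf2 last at every time. At day 0 the order after Igfbp7 was Igfbp5 (939 ± 51.8 normalized counts per kilobase, SD, n = 2), Igfbp4 (883 ± 31.8), Igf2r, Igfbp6, Igf1r, Igfbp2, Igfbp3 and Igf1, where the libraries of Igfbp5 and Igfbp4, and those of Igfbp3 and Igf1, overlapped. At day 7 Igfbp6 was second with 13436 ± 253 per kilobase, followed by Igfbp3, Igfbp4, Igfbp5, Igf2r, Igfbp2, Igf1r and Igf1, with overlap between Igfbp2 and Igf1r. The day 14 order was Igfbp6 (25746 ± 5008 per kilobase), Igfbp4, Igfbp3, Igfbp2, Igfbp5, Igf2r, Igf1r and Igf1, with overlap between Igf2r and Igf1r. At day 21 Igfbp6, Igfbp4 and Igfbp3 overlapped at 5764 ± 2529, 5529 ± 1116 and 4500.3 ± 1821 per kilobase, followed by Igfbp5, Igfbp2, Igf2r and the overlapping pair Igf1 and Igf1r. Dividing by the longest transcript in place of all exon bases exchanged only pairs or the triplet whose libraries overlapped here.

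Within the 6 binding protein genes, Igfbp7 held 90.3 and 87.9% of the summed level per kilobase on day 0, 80.1 and 80.0% on day 7, 72.2 and 65.0% on day 14, and 80.4 and 81.0% on day 21. The other 5 were dominated by different genes at different times. Of their sum per kilobase, Igfbp5 made up 38.5 and 39.5% and Igfbp4 38.6 and 34.9% on day 0, when Igfbp6 had 13.7 and 17.0%. At day 7 Igfbp6 had 69.8 and 70.0% and Igfbp5 3.97 and 4.40%, and on day 14 Igfbp6 had 69.9 and 77.0% and Igfbp5 1.35 and 0.935%. At day 21 Igfbp6 had 44.1 and 21.7%, Igfbp4 27.7 and 34.5%, and Igfbp3 18.8 and 31.6%, so the leading gene differed between the 2 libraries of that time. The summed level of binding protein transcripts was 303- and 251-fold that of the 2 ligands per kilobase on day 0, 851- and 841-fold on day 7, 1456- and 1349-fold on day 14, and 572- and 519-fold on day 21. This ratio was highest on day 14 and lowest on day 0, without removal of a trend in transcript length and GC content. On day 14 relative to day 7, that removal changed the log2 change of Igfbp7 from -0.02 to -0.45 and of Igfbp6 from 0.92 to 0.51. It changed that of Igf1 from -0.71 to -0.45 and of Igf2 from 0.51 to 0.92. The ratio was not computed with the trend removed, so its peak on day 14 may depend on it. Most of the binding protein sum is Igfbp7. Without Igfbp7 the sum per kilobase was 2343 and 2467 on day 0 and 19004 and 19450 on day 7. It was 31758 and 38023 on day 14 and 17114 and 18321 on day 21. The 2 ligands summed to 79.7 and 81.2 per kilobase on day 0 and 112 and 116 on day 7. Their sum was 78.4 and 80.6 on day 14 and 153 and 186 on day 21. All of these are RNA levels or ratios of them, and say nothing of the amounts of protein or of IGF in the medium.

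**Figure D3:**
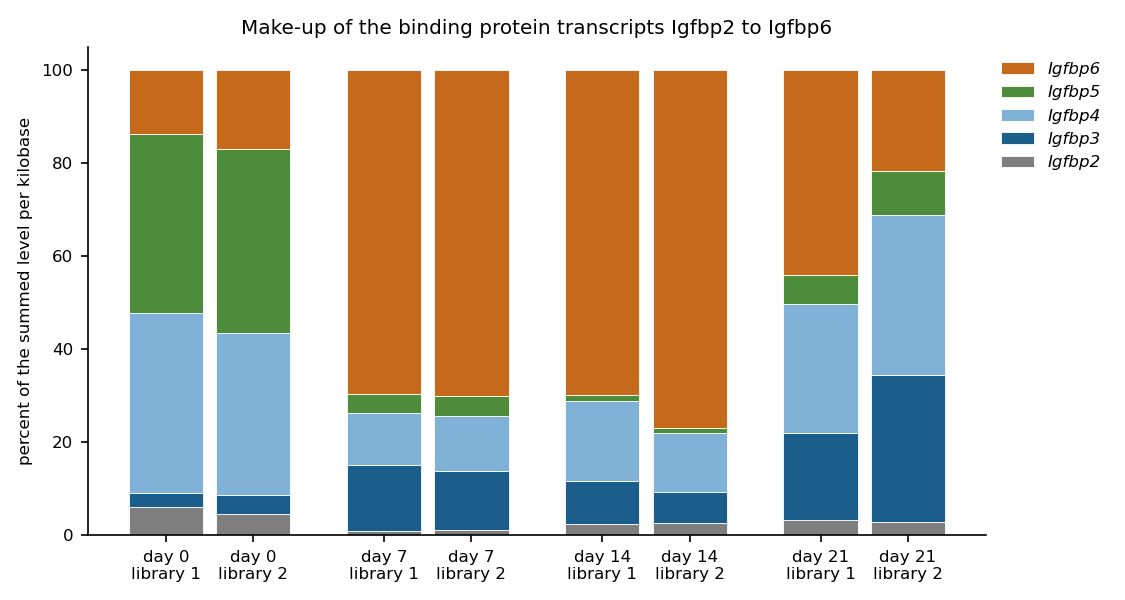
Stacked bars of the share (percent) that Igfbp2 to Igfbp6 take in their summed level per kilobase, with 1 bar per library. Igfbp5 and Igfbp4 fill most of the day 0 bars, Igfbp6 fills 69.8 to 77.0% of the day 7 and day 14 bars, and the day 21 bars are split between Igfbp6, Igfbp4 and Igfbp3.

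The 4 genes that fell in the second week and rose in the third, Igf1, Igf1r, Igf2r and Igfbp5, have the longest transcripts of the 10 (7052, 11409, 8887 and 6006 bases). Over 13421 tested genes with a known length, the log2 change sloped by -0.37 per doubling of transcript length on day 14 relative to day 7 and by 0.24 on day 21 relative to day 14, but by -0.01 on day 7 relative to day 0. With the trend in length and GC content removed, all 4 stayed called in both weeks, with smaller changes. Of all 13527 genes, 5650 and 3704 were then called in these weeks. At day 14 relative to day 7 the log2 changes became -0.43 for Igf1r (adjusted p = 0.000977), -1.01 for Igf2r (adjusted p = 1.87e-05), -0.45 for Igf1 (adjusted p = 0.00906) and -0.59 for Igfbp5 (adjusted p = 0.00818). At day 21 relative to day 14 they became 0.25 for Igf1r (adjusted p = 0.0259), 0.90 for Igf2r (adjusted p = 3.54e-05), 1.07 for Igf1 (adjusted p = 0.000214) and 1.51 for Igfbp5 (adjusted p = 0.000116). Igf1r, the longest, kept the smallest changes. The difference of Igf1 on day 14 relative to day 0 was not called after this removal (log2 change -0.12, adjusted p = 0.346). For Igf1r on day 14 relative to day 0 the log2 change was -0.48 after it and -1.29 before it, and on day 21 relative to day 0 it was -0.24 and -0.56, called each time. Removal also brought 2 genes into the second-week calls, Igf2 higher (log2 change 0.92, adjusted p = 0.0102) and Igfbp7 lower (log2 change -0.45, adjusted p = 0.0497). Whether RNA quality differed between the times was not tested.

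**Figure D4:**
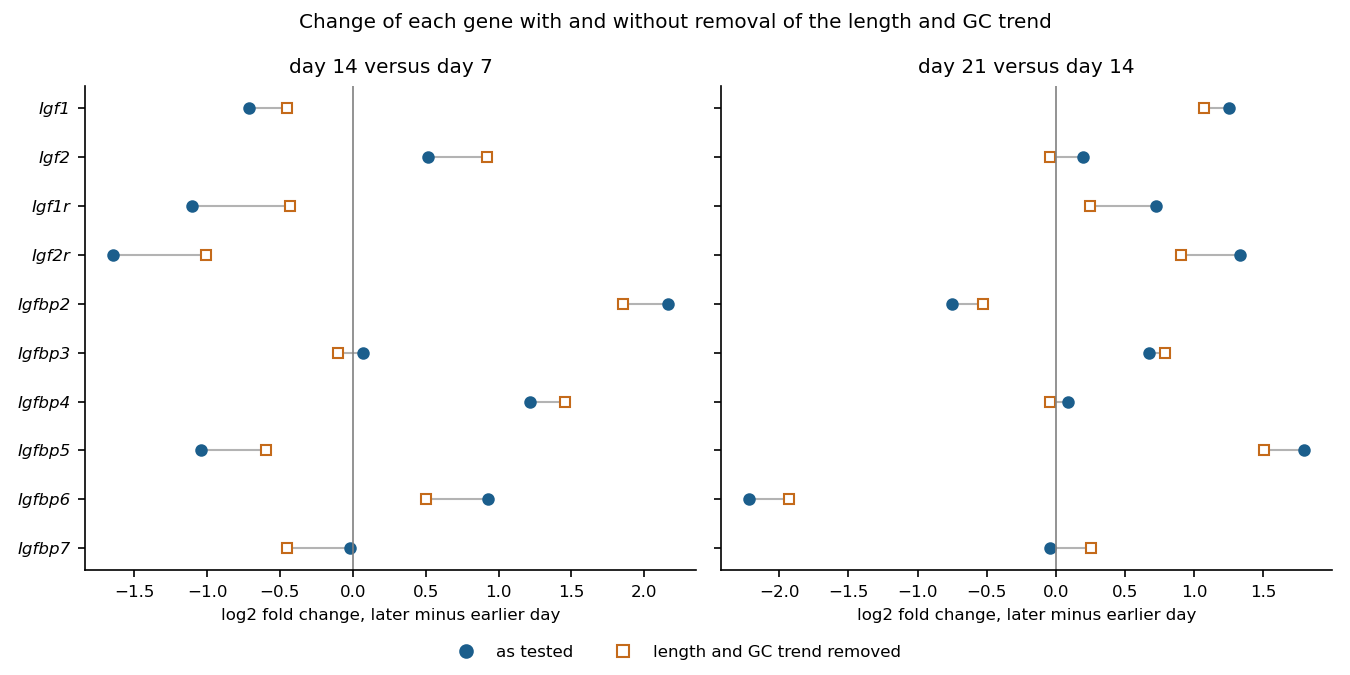
Log2 fold change (later minus earlier day) of each gene between day 14 and day 7 (left) and between day 21 and day 14 (right), as tested (filled circles) and after removal of the trend in transcript length and GC content (open squares). Igf1r moves most towards 0, to -0.43 and 0.25, and Igf2r, Igf1 and Igfbp5 keep their directions.

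Day 21 was also compared with day 7, leaving out the dip on day 14. Of the 10 genes, 6 were called (4 higher and 2 lower), where 8.74% of all genes were called. Igfbp2 (log2 change 1.42 ± 0.15, adjusted p = 0.000144) and Igfbp4 (1.31 ± 0.13, adjusted p = 9.65e-05) were higher on day 21 under every library left out. Igfbp5 (0.75, adjusted p = 0.0214), Igf1 (0.54, adjusted p = 0.00719), Igfbp6 (-1.29, adjusted p = 0.00553) and Igf1r (-0.38, adjusted p = 0.0419) were not called without one or other day 7 library, which left 2 of the 10 called. Without the first or the second day 7 library the adjusted p was 0.105 and 0.0700 for Igf1 (log2 changes 0.51 and 0.57), 0.0501 and 0.0530 for Igfbp6 (-1.31 and -1.27), 0.184 and 0.0882 for Igfbp5 (0.66 and 0.85), and 0.200 and 0.285 for Igf1r (-0.41 and -0.35). Without the second day 21 library the Igfbp5 difference was 0.42 (adjusted p = 0.0746) and that of Igfbp6 -0.83 (adjusted p = 0.0203). Igf1r was also not called without the first day 21 library (log2 change -0.26, adjusted p = 0.248) or without either day 0 library (adjusted p = 0.0847 without the first and 0.0842 without the second). With the length and GC trend removed, Igf1r was not called (log2 change -0.18, adjusted p = 0.149) and Igf2 was called higher (0.88, adjusted p = 0.0450). Igf2r (log2 change -0.31, adjusted p = 0.110) and Igfbp3 (0.75, adjusted p = 0.0581) were not called with all libraries, but were called without either day 14 library (adjusted p of 0.0377 and 0.0375 for Igf2r, 0.0310 and 0.0308 for Igfbp3), and Igfbp3 also without the first day 21 library (log2 change 1.17, adjusted p = 0.00601).

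Other IGF and insulin family genes were almost silent. Igfbp1, Igfals (a partner of IGFBP3 in blood) and Insl3 had 1, 2 and 4 reads over all 8 libraries, Igfbpl1 had 20, and Ins1 and Ins2 had none. Insl6 entered the tests with 110 reads and was not called in any comparison.

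Among genes for proteins that cut binding proteins, or block that cut, the inhibitor gene Stc1 and the protease genes Htra3 and Mmp3 rose and Adam12 fell in the first week. Of 15 tested protease and inhibitor genes, 9 were called higher and 2 lower on day 7 relative to day 0, 73.3% called against 55.4% of all genes (median log2 change 0.86, against -0.01 for all genes), and 9 and 2 on day 21 relative to day 0 (median 0.96), where 59.4% of all genes were called. Stc1, an inhibitor of pappalysin, had 179 and 192 normalized counts on day 7 and 9.55 and 6.54 on day 0 (log2 change 4.38, adjusted p = 1.52e-08). The serine protease gene Htra3 had 3676 and 3884 normalized counts on day 7 and 318 and 414 on day 0 (log2 change 3.38, adjusted p = 1.87e-09), and it reached 9419 and 11809 on day 21. Mmp3, a matrix metalloproteinase that can cut IGFBP3, rose by 3.05 on day 7 relative to day 0 (adjusted p = 2.58e-08), and Adam12, a protease that cuts IGFBP3 and IGFBP5, fell by 2.57 on the log2 scale (adjusted p = 8.63e-09). Pappa, the pappalysin that cuts IGFBP4, did not pass the test in the first 2 weeks, but with the length and GC trend removed it was called higher on day 14 than on day 7 (log2 change 0.45, adjusted p = 0.00658). It had 998 and 993 normalized counts on day 21, against 615 and 399 on day 14 (log2 change 1.01, adjusted p = 0.00107). At day 14 relative to day 7, 3 of the 15 were higher and 6 lower, 60% called against 52% of all genes.

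Downstream of the receptor, the 16 tested genes for the insulin receptor and its adapters split into 6 higher and 4 lower on day 7 relative to day 0 (median 0.00), 1 higher and 8 lower on day 14 relative to day 7 (median -0.36), and 8 higher and 0 lower on day 21 relative to day 14 (median 0.30). The called shares were 62.5, 56.3 and 50%, against 55.4, 52 and 34.5% of all genes, so those of the first 2 weeks were near the share over all genes. The medians of all genes in these weeks were -0.01, -0.00 and 0.02. With the length and GC trend removed, the counts were 3 higher and 6 lower in the second week (median -0.19). In the third they were 7 higher and 1 lower (median 0.19). That removal left 5650 of the 13527 tested genes called in the second week and 3704 in the third. The docking proteins moved apart in the first week. Irs1 had 592 and 618 normalized counts on day 7 and 1672 and 1569 on day 0 (log2 change -1.42, adjusted p = 7.05e-07), and it was still lower on day 21 than on day 0 (log2 change -2.24, adjusted p = 8.58e-09). Irs2 had 447 and 464 normalized counts on day 7 and 167 and 204 on day 0 (log2 change 1.30, adjusted p = 0.00141). In the third week Irs2 had 713 and 840 on day 21 and 220 and 98.2 on day 14 (log2 change 2.39, adjusted p = 0.000185). Insr, the insulin receptor gene, rose by 0.65 on day 7 over day 0 (adjusted p = 0.00204) and fell by 0.73 on day 14 relative to day 7 (adjusted p = 0.00126), a fall that was not called with the length and GC trend removed (log2 change -0.15, adjusted p = 0.269). Irs3 (log2 change 3.86) and the feedback inhibitor gene Socs2 (1.63) were among those higher on day 7 than on day 0.

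Of 26 tested genes of the PI3K, AKT and mTOR pathway, 6 were higher and 8 lower on day 7 relative to day 0, 2 higher and 14 lower on day 14 relative to day 7, and 11 higher and 2 lower on day 21 relative to day 14, with medians of 0.06, -0.33 and 0.25. The called shares were 53.8, 61.5 and 50%, against 55.4, 52 and 34.5% of all genes. Once the trend in length and GC content was taken out, 12 were higher and 10 lower on day 7 relative to day 0 (median 0.10). On day 14 relative to day 7 the counts were then 6 higher and 6 lower (median -0.04). On day 21 relative to day 14 they were 5 higher and 1 lower (median 0.03). Of the 13527 tested genes, 8190, 5650 and 3704 were called in these weeks with that removal. Deptor, an inhibitor of mTOR, had 1819 and 1623 normalized counts on day 7 and 93.9 and 105 on day 0 (log2 change 4.10, adjusted p = 1.95e-10). The kinase gene Akt1 was lower on day 7 than on day 0 (log2 change -0.68, adjusted p = 4.87e-05), as was the lipid kinase subunit gene Pik3cb (-1.24, adjusted p = 1.97e-06). Foxo3, a transcription factor that AKT restrains, had 432 and 441 normalized counts on day 0, 834 and 736 on day 7, and 335 and 191 on day 14. Its log2 change was 0.84 on day 7 over day 0 (adjusted p = 0.00329) and -1.63 on day 14 relative to day 7 (adjusted p = 7.40e-05), or -1.06 with the length and GC trend removed (adjusted p = 0.000763).

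For each of the 10 genes the 3 other genes with the most similar course were taken, by Pearson correlation of log2 values over the 8 libraries among 10750 genes with a mean of at least 50 normalized counts. The libraries fall into 4 times, so high correlations mainly mean the same order of times. Ubqln1 (r = 0.999), Fndc1 and Ext2 came closest to Igf2r, Champ1 (r = 0.999), Dnajc5 and Cpt1a to Igf1r, Tmtc1 (r = 0.998), Slc43a2 and Crispld2 to Igfbp3, and Entpd2 (r = 0.998), Icosl and Il27ra to Igf2. Kif3c (r = 0.996), Gnai1 and Lpl came closest to Igfbp7, Aagab (r = 0.995), Ablim3 and Nrtn to Igfbp6, Glt8d2 (r = 0.995), Dpt and Id2 to Igfbp4, Plxnd1 (r = 0.991), Aoc3 and St3gal1 to Igfbp5, and Hscb (r = 0.991), Adc and Mthfs to Igfbp2. The best match of Igf1, Flot2 (r = 0.971), was the weakest of these best matches, followed by Por and Pqlc3. Fndc1 had a mean of 676 normalized counts on day 14 and 15244 on day 0, a wider range than that of Igf2r, and Dpt had 17481 on day 14 and 1415 on day 0, a wider range than that of Igfbp4.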

How the data were processed

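Per the labels' protocols, total RNA came from the RNeasy Plus Mini Kit. Tools listed by the submitters' processing notes, without roles, are HTSeq 0.6.1, TopHat2 2.0.11 and DESeq with no version, and the listed build is mouse mm9. Neither the annotation nor the strand setting is stated in the sources used here. The values deposited by the authors are a signal per gene, reads divided by 1 size factor per library. Dividing by the smallest step of each library gave back reads, whole to within 0.01 for 100% of entries.

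The tests ran on log2(value + 1), so fold changes of low genes are understated. The filter asked for 10 normalized counts or more in 2 or more libraries and left 13527 genes. All 8 libraries entered 1 fit with limma 3.58.1 (trend; 4 residual and 8.16 prior degrees of freedom), with Benjamini-Hochberg adjustment over all 13527 genes and calls below 0.05. The fit was tested on simulated data. Alternatives were edgeR 4.0.16 and DESeq2 1.42.0 on recovered reads, TMM, upper quartile and quantile scaling, pseudocounts of 0.5 and 5, no filter and a minimum of 50, only the 2 times compared, removal of a length and GC trend, a replicate block and each library left out. Lengths came from GENCODE M21 on GRCm38, a build other than mm9, so it gave no coordinates. Promoter bases are RefSeq's on GRCm38.p6.

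The 10 genes, the pathway and marker lists and the tests were chosen with earlier results of these data known. Of the listed pathway genes, the called ones with the largest change and uncalled ones with the largest mean were eligible to be named, up to 3 and 2 per list and comparison, and for each of the 10 genes the 3 most similar genes. Adam12 and M6pr fall outside this rule and were chosen after their values were seen. Errors on levels are standard deviations over n = 2 libraries. Fits ran in R 4.3.3, and figures were drawn with matplotlib 3.10.9 under Python 3.11.15.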

Additional observations from a re-analysis of the deposited data

How the results depend on the processing

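Of the alternative values for the 10 genes, 1192 kept their direction and their side of the threshold, 34 lost the call, 15 gained it and 19 changed sign, all 19 for changes that were called neither way. With the length and GC trend removed, with or without the block, the log2 changes that turned sign were -0.10 for Igfbp3 between day 14 and day 7, and -0.045 for Igf2, -0.042 for Igfbp4 and 0.25 for Igfbp7 between day 21 and day 14. Igfbp7 between day 14 and day 7 was 0.029 with upper quartile scaling and 0.32 with quantile normalization, which also gave -0.11 for Igfbp4 between day 21 and day 14 and 0.10 for Igfbp7 between day 21 and day 7. Single libraries left out gave -0.041 to 0.18 for Igfbp3 and -0.13 to 0.092 for Igfbp7 between day 14 and day 7, -0.13 to 0.52 for Igf2, -0.12 to 0.30 for Igfbp4 and -0.15 to 0.070 for Igfbp7 between day 21 and day 14, and -0.14 to 0.019 for Igfbp7 between day 21 and day 7. Counts of called genes among the 10 stayed within 1.5 times the main count except between day 21 and day 7, where leaving out single libraries gave 2 to 8 of 10 (6 with all), the 2 coming without either day 7 library. Over all genes, the count between day 21 and day 7 was 1182, against 739 without the filter and 262 to 2173 with single libraries left out: 262 and 299 without the first and second day 7 library, 731 and 735 without the day 0 libraries, 521 without the first day 21 library, and 2169 and 2173 without the day 14 libraries. Between day 21 and day 14 it was 4664, against 2635 from those 2 times alone and 2303 to 5750 with single libraries left out, of which 2561 without the second day 14 library and 2303 without the second day 21 library were the low ones. The cause was not tested. Higher calls made up 58.6% between day 21 and day 14, against 46.7% with upper quartile scaling, and 62.4% between day 21 and day 7, against 51.5% with quantile normalization. Igfbp3 between day 21 and day 14 was also uncalled with quantile normalization (adjusted p = 0.0997), without the filter (0.0699) and from those 2 times alone (0.0574), and Igf1r (0.0683) and Igfbp5 (0.0538) between day 21 and day 7 without the filter. From the 2 times alone, Igf1r (adjusted p = 0.0119) and Igfbp5 (0.00953) were called lower on day 7 than on day 0. In the same way Igf2 was called higher on day 14 than on day 7 (adjusted p = 0.0399). Igfbp3 was called higher on day 21 than on day 7 from those 2 times alone (adjusted p = 0.0409) and by edgeR on recovered reads (0.0317). Same-numbered libraries did not pair: their deviations from the group means correlated at -0.04 to 0.07 over the 6 pairs of times, positive in 3. With the replicate number as a block the counts among the 10 were 8, 10, 10, 7, 7 and 5, the lost call being Igf1r between day 21 and day 7 (adjusted p = 0.0611). The removal of the trend for the pathway lists was added after the data were seen. Igf2 is limited by its 12 to 147 reads per library.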

Other observations

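Of 11 tested genes of an imprinted growth network with Igf2, 3 were called higher and 3 lower on day 7 relative to day 0, 54.5% called, near the 55.4% of all genes. Cdkn1c, which encodes an inhibitor of the cell cycle, had 608 and 601 normalized counts on day 7 and 23.1 and 24.8 on day 0 (log2 change 4.60, adjusted p = 1.26e-10). Plagl1, a transcription factor gene, had 803 and 837 normalized counts on day 7 and 55.7 and 51.0 on day 0, and was lower again on day 14 than on day 7 (log2 change -1.18, adjusted p = 0.000519). H19, the noncoding neighbour of Igf2, differed from Igf2 in timing: it was not called on day 7 relative to day 0 (log2 change 0.03, adjusted p = 0.894) and rose by 1.73 on day 14 over day 7 (adjusted p = 3.90e-05), with 302 and 351 normalized counts on day 14 and 114 and 82.9 on day 7. Meg3 had 42.7 and 22.4 normalized counts on day 21 and 282 and 323 on day 14 (log2 change -3.24, adjusted p = 2.41e-05). Airn, the noncoding RNA read against Igf2r, was lower on day 7 than on day 0 together with Igf2r (log2 change -0.88, adjusted p = 0.0414), on 235 reads over all libraries.

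Of 12 tested genes of the mannose 6-phosphate pathway, in which Igf2r works as a sorting receptor, 3 were higher and 3 lower on day 7 relative to day 0, 50% called against 55.4% of all genes. Gnptg, a subunit of the enzyme that begins the mannose 6-phosphate tag, rose by 2.56 on the log2 scale (adjusted p = 4.45e-09), while Plaur (-2.39) and the sorting receptor gene Sort1 (-0.56) were lower. M6pr, the other mannose 6-phosphate receptor gene, had 1597 and 1563 normalized counts on day 7 and 1428 and 1456 on day 0 and was not called (log2 change 0.13, adjusted p = 0.247). Among 8 tested partners of the binding proteins outside the IGF axis, 1 was higher and 7 lower on day 14 relative to day 7, where 52% of all genes were called, and 4 were higher and 1 lower on day 21 relative to day 14, where 34.5% were. With the length and GC trend removed these counts were 0 and 5, and 3 and 1, where 5650 and 3704 of the 13527 genes were called. Lrp1, an endocytic receptor gene, had 8947 and 7498 normalized counts on day 14 and 21248 and 27715 on day 7 (log2 change -1.57, adjusted p = 3.98e-05, or -0.68 with that trend removed, adjusted p = 0.00168), and the integrin subunit gene Itgav was lower on day 14 as well (-1.60, adjusted p = 9.81e-06). Of the 3 genes for IGF2 mRNA-binding proteins, Igf2bp2 was higher on day 7 than on day 0 (log2 change 0.86, adjusted p = 1.91e-05), Igf2bp3 lower (-0.60, adjusted p = 0.00451) and Igf2bp1 not called (-0.71, adjusted p = 0.0867).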
